A study of Mus musculus with 18 samples.

Results

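The genes described here are 10 immediate early genes of the mouse, taken by name: Fos, Fosb, Jun, Junb, Egr1, Egr2, Ier2, Ier3, Zfp36 and Dusp1. Counts were at hand for 9 of them, among 15194 genes joined from the deposited comparison tables, and Egr2 was not analysed here. Of the 9, 8 had counts in all 18 libraries, and Fosb had counts in 12, with none used for the MLKL cells at J0 or the RIPK3 cells at J7. The RNA-seq libraries came from 3T3-L1, a line of mouse embryonic fibroblasts that turns into fat cells under a hormone mixture, in 3 libraries for each of 6 groups. J0_CTL, J0_MLKL and J0_RIPK3 are untreated, undifferentiated cells of the control, MLKL-/- and RIPK3-/- genotypes, and J7_CTL, J7_MLKL and J7_RIPK3 are differentiated cells of the lines so titled. MLKL is the protein that breaks the membrane in necroptosis, a form of programmed cell death, and the kinase RIPK3 phosphorylates and so activates MLKL. How the knockout lines were made, and whether each is 1 clone, is not given in the sources used here.

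The names J7_MLKL and J7_RIPK3 follow the sample titles and the column names of the tables. The genotype label of the 6 knockout samples at J7 names the other knockout, so comparisons of J7 with J0 within a knockout line depend on the titles, and comparisons of each J7 knockout group with J7_CTL depend on them only for the group's name. Mlkl RNA, in CPM (the count divided by the library total and scaled), was 18.2, 19.8 and 18.7 in J0_CTL, 15.6, 14.5 and 17.7 in J0_RIPK3 and 7.24, 9.72 and 7.19 in J0_MLKL. The J7 values were 25.4, 27.5 and 26.1 in CTL, 13.9, 16.4 and 15.02 in the libraries titled MLKL, and 32.3, 26.5 and 28.4 in those titled RIPK3. Ripk3 RNA at J7 was 17.5, 19.2 and 18.2 CPM in CTL, 10.2, 10.9 and 11.7 in those titled RIPK3, and 7.73, 7.97 and 12.0 in those titled MLKL. At J0 Ripk3 RNA was 19.6, 16.8 and 18.3 CPM in CTL, 14.7, 17.3 and 15.8 in RIPK3, and 5.74, 9.44 and 7.19 in MLKL. Mlkl RNA was thus below CTL without overlap in both groups titled MLKL and, by less, in J0_RIPK3, and in J7_RIPK3 it overlapped CTL. Ripk3 RNA was below CTL in both J7 knockout groups and in J0_MLKL, and overlapped CTL in J0_RIPK3, so neither gene settles the labels. No label ties the 3 libraries of a group to separate cultures, and a p-value here reflects library-to-library spread that may be technical.

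Immediate early genes are transcribed within minutes of a stimulus such as serum, a growth factor or stress, by transcription factors that are already in the cell, among them serum response factor with its ternary complex partners and CREB. Most encode short-lived RNAs and proteins: subunits of the AP-1 transcription factor (the Fos and Jun families), zinc-finger transcription factors (the Egr family), and proteins that end the response, such as the RNA-decay factor Zfp36 and the phosphatase Dusp1. In 3T3-L1 cells the hormone mixture that starts fat-cell formation is known to induce several of them briefly, soon after it is added. The samples here are from J0 and J7, so the values are levels in undifferentiated and differentiated cultures and not a time course of induction.

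The 250 bases before the start site were searched on both strands in 7 of the genes (Fos, Fosb, Jun, Junb, Ier3, Zfp36 and Dusp1), which were matched by symbol to the RefSeq promoter table of build GRCm38.p6. The motifs were the CArG box bound by serum response factor, the CRE core TGACG, the full CRE TGACGTCA (which holds TGACG on both strands), the AP-1 site TGANTCA, the EGR site GCGNGGGCG and the TATA box TATAAA. Of 32851 promoter windows of the same length in the table, 1.47% held the CArG box, 17.8% TGACG, 1.55% TGACGTCA, 6.75% TGANTCA, 4.70% GCGNGGGCG and 12.4% TATAAA. The stretches shown are those of Fos, Zfp36, Dusp1, Jun and Junb. Fos, Zfp36 and Dusp1 rose from J0 to J7 in every line, and Jun and Junb moved in opposite directions in the MLKL cells. Ier2 and Ier3 also rose in every line. No window of Ier2 was searched, and that of Ier3, which held no match, is not shown. Capitals mark the motif matches, and each stretch reads 5′ to 3′ on the gene's strand, with position -1 next to the RefSeq start site. Bases inside the gene's span in the deposited tables were left out, except that for Zfp36, whose window lies wholly inside that span, 30 bases around the CArG box are shown.
Fos, chr12:85473640-85473889, plus strand: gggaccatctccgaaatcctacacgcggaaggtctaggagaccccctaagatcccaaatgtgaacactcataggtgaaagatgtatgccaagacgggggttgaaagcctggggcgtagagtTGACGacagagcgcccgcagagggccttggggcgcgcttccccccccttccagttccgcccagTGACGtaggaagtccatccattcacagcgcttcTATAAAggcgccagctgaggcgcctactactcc
Zfp36, chr7:28379267-28379296, minus strand: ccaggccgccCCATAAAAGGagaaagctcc
Dusp1, chr17:26508520-26508722, minus strand: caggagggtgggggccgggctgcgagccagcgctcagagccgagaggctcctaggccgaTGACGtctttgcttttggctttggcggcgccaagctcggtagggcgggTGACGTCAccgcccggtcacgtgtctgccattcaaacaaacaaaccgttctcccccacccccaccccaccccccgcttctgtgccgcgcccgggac
Jun, chr4:95052223-95052472, minus strand: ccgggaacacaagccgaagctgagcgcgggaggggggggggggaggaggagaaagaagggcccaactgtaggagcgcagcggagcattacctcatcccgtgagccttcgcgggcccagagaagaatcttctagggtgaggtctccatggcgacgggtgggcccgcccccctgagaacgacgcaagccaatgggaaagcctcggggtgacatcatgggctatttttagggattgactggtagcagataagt
Junb, chr8:84978749-84978998, minus strand: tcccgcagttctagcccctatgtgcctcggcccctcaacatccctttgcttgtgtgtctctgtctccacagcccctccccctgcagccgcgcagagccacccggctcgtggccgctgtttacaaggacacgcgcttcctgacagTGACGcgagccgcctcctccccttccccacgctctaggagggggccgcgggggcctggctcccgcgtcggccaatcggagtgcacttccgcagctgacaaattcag

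In Fos the CRE core began at -129 and at -66, and a TATA box at -33. In Dusp1 the CRE core began at -191 and the full CRE at -143. Zfp36 held a CArG box from -58 to -49 and, outside the stretch shown, an EGR site from -105 to -97. Junb held 1 CRE core, at -106, Fosb a CRE core at -60 and an EGR site at -50, and the windows of Jun and Ier3 held none of the 6 motifs as spelled. A match is a description of these letters, and its absence says only that the letters are not in the window. The tables place Fos at chr12:85473890-85477273, Fosb at chr7:19302696-19310051, Jun at chr4:95049034-95052222, Junb at chr8:84974484-84978718, Ier2 at chr8:84661331-84662852, Ier3 at chr17:35821684-35822923, Zfp36 at chr7:28376784-28380253 and Dusp1 at chr17:26505590-26508519, all in build mm10, and values are sums over each whole gene.

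Library totals were 20.2 to 36.9 M reads (M, mega). A listed immediate early gene had between 41 and 3829 reads in a library, so the relative counting error was at most 15.6% for the least covered value. Preselection bears on every count of genes, since a table lists only genes that the authors called in that comparison, and a gene has counts for a group only where some table with that group lists it. Below, "all genes" means all genes tested in a comparison, a set preselected in this way. Listed genes held 90.0 to 98.4% of the reads in the CTL and RIPK3 libraries, 29.3 to 30.4% in J0_MLKL and 53.5 to 54.5% in J7_MLKL. Within the MLKL groups libraries differed most. Of the 6572 listed genes with at least 1 CPM, 44.9% stood more than 0.5 on the log2 scale from the mean of the other libraries of the group in J7_MLKL 3, beside 16.2% and 17.9% in J7_MLKL 1 and 2, and of 3475 such genes 16.9% did in J0_MLKL 2, beside 3.68% and 5.12% in J0_MLKL 1 and 3. Calls that rest on MLKL libraries are also given without J0_MLKL 2 and J7_MLKL 3, beside the value or together after the comparisons. Fold changes are on the log2 scale with their standard errors (SE), and "called" means an adjusted p under 0.05 by edgeR's quasi-likelihood test with Benjamini-Hochberg adjustment over all genes tested in the comparison. Each SE was derived from that test, as the absolute log2 fold change over the square root of its F statistic.

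From J0 to J7 in the control line, RNA of Fos, Ier2, Ier3, Zfp36, Dusp1 and, by less, Egr1 rose, and that of Fosb, Junb and, by 0.08 on the log2 scale, Jun fell. All 9 genes tested were called, 6 higher and 3 lower. Of the 12055 genes tested 95.9% were called, 48.2% higher and 47.6% lower, so the share called is near that of all genes tested. The authors listed 12218 genes as called in this comparison. The 95.9%, here and below, is thus largely built in, and its nearness says little. The median log2 fold change of the 9 genes was 0.97, beside 0.03 over all genes tested. In the RIPK3 line 7 of 8 genes were called, 5 higher and 2 lower, beside 97.8% of 11798 genes, 49.3% higher and 48.5% lower. That share is largely built in too, since the authors listed 12268 genes as called there. The median over the 8 genes was 0.95, beside 0.04 over all. In the MLKL line all 8 genes were called, 7 higher and Jun lower, beside 66.7% of 3075 genes, 35.8% higher and 30.9% lower. The median there was 1.26, beside 0.03 over all genes tested. Preselection weighs most here, since Fos, Junb, Egr1, Ier2, Zfp36 and Dusp1 had J0_MLKL counts only because the authors called them in this comparison. Their calls were thus largely fixed beforehand, and the count and median do not measure how the set as a whole moved. Fos, Ier2, Ier3, Zfp36 and Dusp1 rose in all 3 lines.

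**Figure D1:**
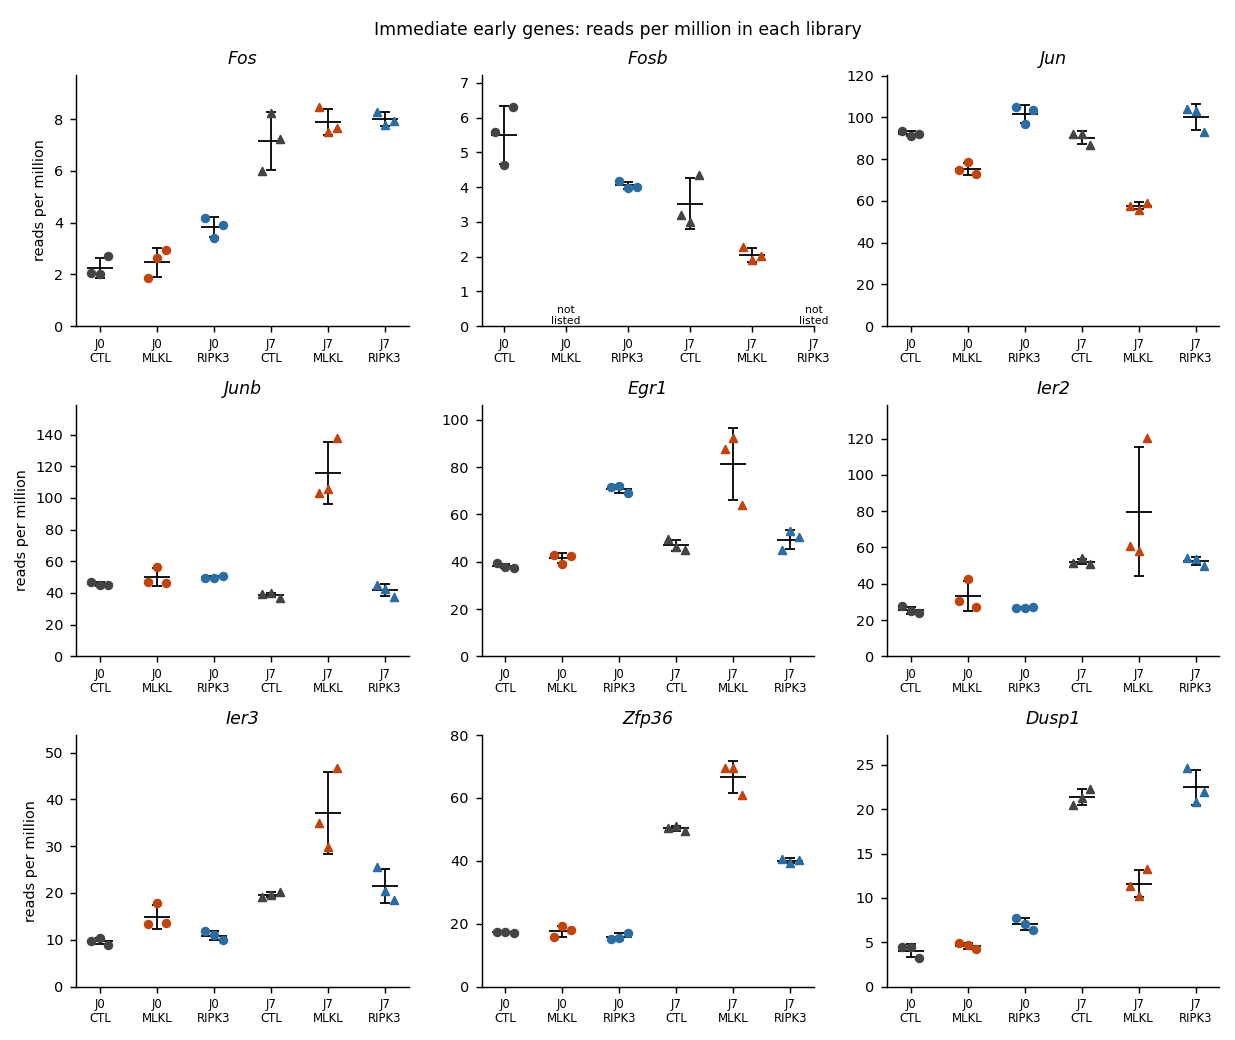
CPM (y axis, from 0) of the 9 immediate early genes in each library, by group (x axis). Circles are J0 and triangles J7 libraries, grey CTL, orange MLKL and blue RIPK3, and bars are the mean ± SD of 3 libraries. Junb stands at 103 to 138 in J7_MLKL and at 37.0 to 56.5 in the other 5 groups, while Dusp1 at J7 stands at 10.2 to 13.2 in MLKL and at 20.5 to 24.7 in CTL and RIPK3.

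Fos encodes the AP-1 subunit that pairs with Jun proteins. Its RNA was 2.04, 2.02 and 2.70 CPM in J0_CTL and 6.01, 8.24 and 7.23 CPM in J7_CTL. It was 1.85, 2.64 and 2.94 CPM in J0_MLKL and 8.46, 7.51 and 7.68 CPM in J7_MLKL, and 4.17, 3.40 and 3.93 CPM in J0_RIPK3 and 8.29, 7.78 and 7.93 CPM in J7_RIPK3. The J0_RIPK3 libraries stood above all other J0 libraries and below all J7 libraries, and the 3 J7 groups overlapped. The rise from J0 to J7 was 1.64 ± 0.16 in CTL (edgeR adjusted p = 8.42e-10), 1.03 ± 0.13 in RIPK3 (edgeR adjusted p = 1.58e-07) and 1.63 ± 0.21 in MLKL (edgeR adjusted p = 0.00099). At J0 Fos was 0.76 ± 0.17 higher in RIPK3 than in CTL (edgeR adjusted p = 0.000454), and MLKL against CTL was 0.18 ± 0.22, not called. At J7 neither knockout line differed from CTL past the threshold, with 0.24 ± 0.16 in MLKL and 0.17 ± 0.12 in RIPK3.

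Fosb, a second Fos-family subunit, went the other way. Its RNA was 5.58, 4.63 and 6.30 CPM in J0_CTL, 4.17, 3.97 and 4.01 in J0_RIPK3, 3.19, 3.00 and 4.36 in J7_CTL and 2.28, 1.89 and 2.00 in J7_MLKL. The J7_MLKL libraries were the lowest of the 12, and J0_CTL the highest. Fosb fell by 0.68 ± 0.16 from J0_CTL to J7_CTL (edgeR adjusted p = 0.000313). It was lower in J0_RIPK3 than in J0_CTL (-0.46 ± 0.13, edgeR adjusted p = 0.00586) and in J7_MLKL than in J7_CTL (-0.67 ± 0.21, edgeR adjusted p = 0.0207). The last call was lost without J7_CTL 3 (-0.52, edgeR adjusted p = 0.0668) or without J7_MLKL 2 (-0.61, edgeR adjusted p = 0.0607). Fosb had J0_RIPK3 and J7_MLKL counts only because the authors called it against CTL in those groups. Both calls of a knockout line against CTL were thus largely fixed beforehand. Per length, the ratio of Fos to Fosb FPKM was 1.09 ± 0.10 (SD, n = 3) in J0_CTL, 2.51 ± 0.21 in J0_RIPK3, 5.56 ± 1.52 in J7_CTL and 10.2 ± 0.35 in J7_MLKL.

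Jun, the AP-1 subunit best known for driving growth-factor responses, changed least of the 9 genes in the control line. Its RNA was 93.4, 91.1 and 92.0 CPM in J0_CTL and 92.1, 92.0 and 86.7 CPM in J7_CTL, and 105, 96.8 and 104 CPM in J0_RIPK3 and 104, 103 and 92.9 CPM in J7_RIPK3. It was 74.6, 78.6 and 72.9 CPM in J0_MLKL and 57.8, 55.9 and 59.2 CPM in J7_MLKL. The J7_MLKL libraries were the lowest of all 18 and the J0_MLKL libraries the next lowest, while J0 and J7 overlapped in the other lines. The change from J0 to J7 was -0.08 ± 0.04 in CTL (edgeR adjusted p = 0.044) and -0.06 ± 0.04 in RIPK3 (edgeR adjusted p = 0.208), and in MLKL Jun fell by 0.42 ± 0.08 (edgeR adjusted p = 0.00458). The call in CTL was lost with library totals (-0.03, edgeR adjusted p = 0.399) or the authors' size factors (-0.01, edgeR adjusted p = 0.692) in place of TMM, with DESeq2, without the filter on low counts, and without any of J0_CTL 1, 2 or 3 or J7_CTL 3 (-0.04, edgeR adjusted p = 0.334). Against CTL, Jun was lower in MLKL at J0 (-0.26 ± 0.06, edgeR adjusted p = 0.00309) and at J7 (-0.54 ± 0.08, edgeR adjusted p = 0.000987). In RIPK3 it was slightly higher, by 0.12 ± 0.04 at J0 (edgeR adjusted p = 0.00559) and 0.16 ± 0.04 at J7 (edgeR adjusted p = 0.00344). Jun had counts in each knockout group only because the authors called it against CTL there. All of these calls against CTL were thus largely fixed beforehand.

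Junb encodes the Jun-family subunit that activates fewer AP-1 targets than Jun and can oppose it. Its RNA was 47.1, 45.0 and 44.9 CPM in J0_CTL, 49.5, 49.2 and 50.7 in J0_RIPK3 and 46.9, 56.5 and 46.3 in J0_MLKL. In differentiated cells Junb was at 39.3, 39.7 and 37.0 CPM in CTL, 45.1, 42.4 and 37.8 in RIPK3, and 103, 106 and 138 in MLKL. All J7_MLKL libraries stood above every other library. Junb fell by 0.29 ± 0.05 from J0 to J7 in CTL (edgeR adjusted p = 6.98e-06) and by 0.29 ± 0.06 in RIPK3 (edgeR adjusted p = 5.28e-05), and it rose by 1.18 ± 0.15 in MLKL (edgeR adjusted p = 0.00109). J7_MLKL against J7_CTL was 1.68 ± 0.14 (edgeR adjusted p = 8.07e-05), a ratio of 3.01 from the pooled reads. Without J7_MLKL 3 it was 1.502. At J0 the MLKL value was 0.16 ± 0.09 and not called, and the RIPK3 value was 0.10 ± 0.04 (edgeR adjusted p = 0.0456), a call lost with DESeq2 (0.10, adjusted p = 0.102), without the filter on low counts, and without any of J0_CTL 2 or 3 or J0_RIPK3 1, 2 or 3.

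Jun and Junb thus parted in the MLKL cells. Per length, the ratio of Jun to Junb FPKM was 1.46 ± 0.02 (SD, n = 3) in J0_CTL, 1.48 ± 0.05 in J0_RIPK3 and 1.10 ± 0.08 in J0_MLKL. In differentiated cells the ratio was 1.68 ± 0.01 in CTL, 1.73 ± 0.06 in RIPK3 and 0.37 ± 0.05 in MLKL. The 3 J7_MLKL libraries, at 0.40, 0.38 and 0.31, were the only ones of the 18 with more Junb than Jun per length, and J0_MLKL lay below the other J0 groups without overlap.

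**Figure D2:**
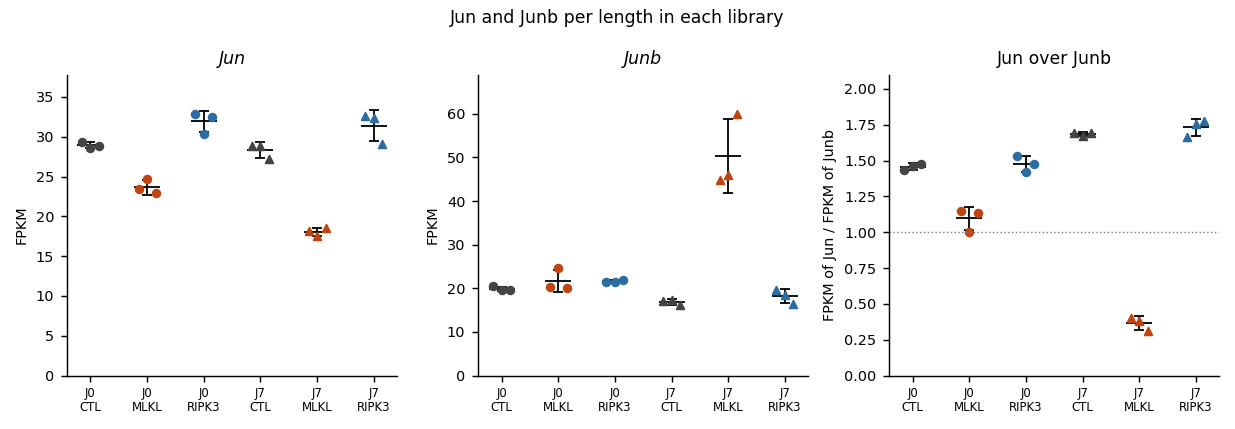
FPKM of Jun and of Junb (left and middle panels, y axes from 0) and their ratio (right panel) in each library, by group on the x axis. Points are libraries, bars the mean ± SD of 3, and the dotted line marks equal FPKM. In J7_MLKL Junb stands at 44.8 to 60.0 FPKM and Jun at 17.5 to 18.6, and the ratio is below 1 in these 3 libraries alone.

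Egr1 encodes a zinc-finger transcription factor that binds GC-rich promoter sites. Its RNA was 39.3, 37.9 and 37.4 CPM in J0_CTL, 71.7, 71.9 and 68.8 in J0_RIPK3 and 42.9, 39.1 and 42.5 in J0_MLKL. Egr1 at J7 stood at 49.4, 46.3 and 44.9 CPM in CTL, 44.8, 52.9 and 50.3 in RIPK3 and 87.5, 92.5 and 63.9 in MLKL. The J0_RIPK3 libraries stood above every J0 library of the other lines, and the J7_MLKL libraries above every other J7 library. Egr1 rose by 0.25 ± 0.05 from J0 to J7 in CTL (edgeR adjusted p = 5.38e-05) and by 0.93 ± 0.15 in MLKL (edgeR adjusted p = 0.00229), and in RIPK3 it fell by 0.55 ± 0.05 (edgeR adjusted p = 3.76e-09). Against CTL it was 0.87 ± 0.04 higher in RIPK3 at J0 (edgeR adjusted p = 3.86e-14) and 0.90 ± 0.15 higher in MLKL at J7 (edgeR adjusted p = 0.00149). The other pairs were not called, with 0.15 ± 0.07 for MLKL at J0, which was called with DESeq2 (0.18, adjusted p = 0.0389) and without J0_MLKL 2 (0.20, edgeR adjusted p = 0.00146), and 0.09 ± 0.06 for RIPK3 at J7, which was called without J7_RIPK3 1 (0.16, edgeR adjusted p = 0.0192).

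Ier2 encodes a small nuclear protein of the early response. Its RNA was 27.5, 24.8 and 23.7 CPM in J0_CTL, 26.8, 26.4 and 27.3 in J0_RIPK3 and 30.4, 42.7 and 27.04 in J0_MLKL. Ier2 at J7 stood at 51.6, 54.1 and 51.1 CPM in CTL, 54.3, 53.4 and 49.8 in RIPK3 and 60.9, 57.9 and 121 in MLKL. J7 stood above J0 in every line without overlap, and J7_MLKL 3 stood far above the other libraries of its group. Ier2 rose by 0.99 ± 0.06 in CTL (edgeR adjusted p = 2.13e-14), 0.94 ± 0.05 in RIPK3 (edgeR adjusted p = 2.64e-13) and 1.23 ± 0.33 in MLKL (edgeR adjusted p = 0.0148). The MLKL value was 0.79 without J7_MLKL 3 (edgeR adjusted p = 0.00448), and the call was lost without J0_MLKL 1 (1.14, edgeR adjusted p = 0.056) or J0_MLKL 3 (1.10, edgeR adjusted p = 0.0564). Against CTL, MLKL was higher by 0.43 ± 0.16 at J0 (edgeR adjusted p = 0.0352) and 0.72 ± 0.29 at J7 (edgeR adjusted p = 0.0478). These 2 values were 0.21 without J0_MLKL 2 and 0.25 without J7_MLKL 3, and both were called there (edgeR adjusted p = 0.0128 and 0.000216), and with all libraries both calls were lost with library totals or the authors' size factors in place of TMM and without any 1 control library. The J7 call was also lost with DESeq2 (0.63, adjusted p = 0.0558) and without the filter on low counts. With a mean of at least 50 counts the J0 call was lost (0.40, edgeR adjusted p = 0.0503). The RIPK3 values of Ier2 against CTL, 0.06 ± 0.06 at J0 and 0.02 ± 0.05 at J7, were not called.

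Ier3 encodes an early response protein tied to cell survival. Its RNA was 9.74, 10.4 and 8.96 CPM in J0_CTL, 11.9, 10.9 and 9.85 in J0_RIPK3 and 13.3, 17.9 and 13.5 in J0_MLKL. At J7 it was 19.1, 19.5 and 20.2 CPM in CTL, 25.5, 20.5 and 18.5 in RIPK3 and 34.9, 29.8 and 46.8 in MLKL. The MLKL libraries stood above the CTL libraries at both stages without overlap, and J0_MLKL 2 and J7_MLKL 3 were the highest of their groups, as for Ier2 and Junb. Ier3 rose by 0.97 ± 0.08 in CTL (edgeR adjusted p = 4.22e-11), 0.96 ± 0.10 in RIPK3 (edgeR adjusted p = 1.62e-08) and 1.29 ± 0.21 in MLKL (edgeR adjusted p = 0.00245). Against CTL it was 0.65 ± 0.14 higher in MLKL at J0 (edgeR adjusted p = 0.00288) and 1.02 ± 0.18 higher at J7 (edgeR adjusted p = 0.00178). Without J0_MLKL 2 and J7_MLKL 3 these values were 0.50 and 0.79, both called.

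Zfp36 encodes tristetraprolin, which binds AU-rich RNAs, early gene transcripts among them, and speeds their decay. Its RNA was 17.5, 17.3 and 17.0 CPM in J0_CTL, 15.04, 15.6 and 17.0 in J0_RIPK3 and 15.7, 19.2 and 17.9 in J0_MLKL. Zfp36 at J7 stood at 50.5, 51.1 and 49.4 CPM in CTL, 69.5, 69.6 and 60.9 in MLKL and 40.6, 39.2 and 40.2 in RIPK3. The 3 lines overlapped at J0 and separated fully at J7, in the order MLKL, CTL, RIPK3. Zfp36 rose by 1.498 ± 0.05 in CTL (edgeR adjusted p = 2.07e-18), 1.30 ± 0.07 in RIPK3 (edgeR adjusted p = 4.06e-14) and 1.89 ± 0.11 in MLKL (edgeR adjusted p = 9.68e-05). At J7 it was 0.51 ± 0.09 higher in MLKL than in CTL (edgeR adjusted p = 0.00192) and lower in RIPK3 (-0.32 ± 0.05, edgeR adjusted p = 7.95e-06). At J0 neither knockout value was called.

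Dusp1 encodes a phosphatase that switches off MAP kinases and so closes the early response. Its RNA was 4.43, 4.46 and 3.19 CPM in J0_CTL, 7.72, 7.06 and 6.34 in J0_RIPK3 and 4.87, 4.69 and 4.25 in J0_MLKL. At J7 it was 20.5, 21.2 and 22.3 CPM in CTL, 24.7, 20.9 and 21.9 in RIPK3 and 11.4, 10.2 and 13.2 in MLKL. The J0_RIPK3 libraries stood above the other J0 libraries, and the J7_MLKL libraries lay between all J0 and all other J7 libraries. The rise was the largest of the 9 genes in CTL, at 2.34 ± 0.10 (edgeR adjusted p = 1.37e-16) or 5.22-fold from pooled reads, and was 1.66 ± 0.10 in RIPK3 (edgeR adjusted p = 3.77e-13) and 1.30 ± 0.16 in MLKL (edgeR adjusted p = 0.000943). Against CTL, Dusp1 was 0.76 ± 0.13 higher in RIPK3 at J0 (edgeR adjusted p = 4.67e-05) and lower in MLKL at J7 (-0.77 ± 0.13, edgeR adjusted p = 0.00175). MLKL at J0 (0.21 ± 0.16) and RIPK3 at J7 (0.09 ± 0.07) were not called.

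**Figure D3:**
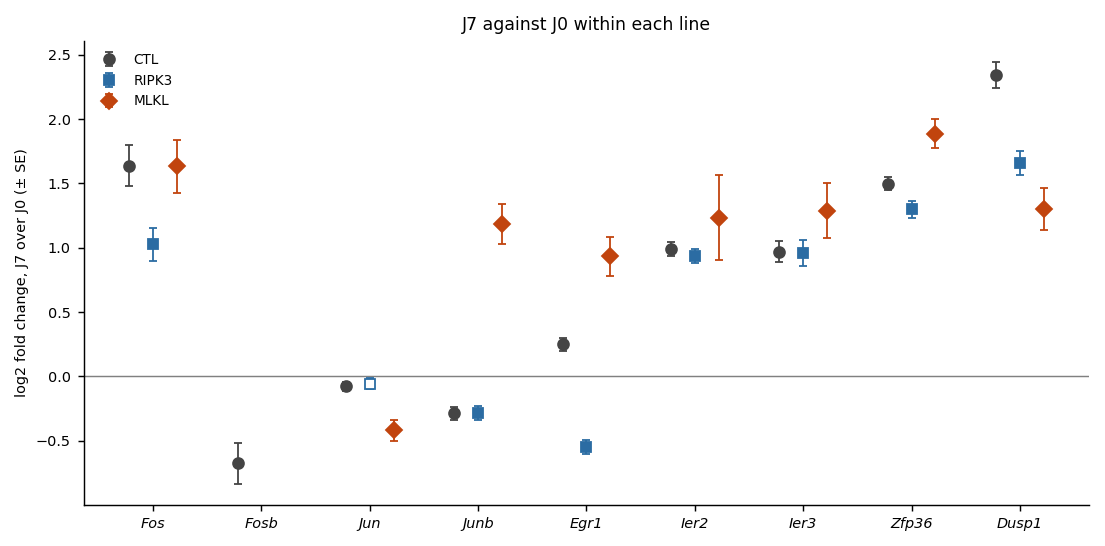
Log2 fold change of J7 over J0 (y axis) of each gene (x axis) within the CTL (grey circles), RIPK3 (blue squares) and MLKL (orange diamonds) lines, with bars of ± 1 SE. Filled marks were called and the open mark, Jun in RIPK3, was not, and Fosb was tested in CTL alone. Junb lies at -0.29 in CTL and RIPK3 and at 1.18 in MLKL, and Egr1 at 0.25, -0.55 and 0.93 in CTL, RIPK3 and MLKL.

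The knockout lines were then set against CTL at each stage. All of these comparisons at 1 stage share the CTL libraries. At J0, 3 of 8 genes were called in MLKL (Ier2 and Ier3 higher, Jun lower), beside 83.6% of 3824 genes, 40.4% higher and 43.2% lower. The authors listed 3055 genes as called in this same comparison, so that share is largely built in. Among the early genes they listed Jun and Ier3 there, and the others of the 8 had J0_MLKL counts only through J7_MLKL against J0_MLKL. The 3 of 8 and the 83.6% thus cannot be set against each other. The same preselection bears on every comparison with J0_MLKL. In RIPK3 at J0 6 of 9 were called, with Fos, Jun, Junb, Egr1 and Dusp1 higher and Fosb lower, beside 55.8% of 11044 genes, 28.3% higher and 27.4% lower. Jun and Fosb had J0_RIPK3 counts only through the authors' call there. At J7, 8 of 9 were called in MLKL, with Junb, Egr1, Ier2, Ier3 and Zfp36 higher and Fosb, Jun and Dusp1 lower, beside 94.9% of 7263 genes, 48.5% higher and 46.4% lower. The authors listed 7288 genes as called in that comparison, and 7868 genes had J7_MLKL counts. The 94.9%, here and below, is thus largely built in. Fosb and Jun had J7_MLKL counts only through this comparison. In RIPK3 at J7 2 of 8 were called, Jun higher and Zfp36 lower, beside 59.1% of 11170 genes, 29.6% higher and 29.5% lower. Without J7_RIPK3 3 that count was 4, with Junb (0.18) and Ier3 (0.24) added. Jun had J7_RIPK3 counts only through the authors' call in that comparison. The median over the immediate early genes was 0.17, 0.12, 0.51 and 0.11 in these 4 comparisons, beside -0.04, -0.01, 0.17 and 0.00 over all genes tested.

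The knockout lines were also compared directly. At J0, MLKL was lower than RIPK3 in Fos (-0.58 ± 0.20), Jun (-0.39 ± 0.06), Egr1 (-0.73 ± 0.07) and Dusp1 (-0.57 ± 0.13) and higher in Ier3 (0.50 ± 0.15), so 5 of 8 were called, beside 66.5% of 3455 genes, 33.1% higher and 33.4% lower. Without J0_RIPK3 3 only Jun, Egr1 and Dusp1 were called, and Fos was also lost without J0_MLKL 1 or J0_RIPK3 1 and Ier3 without J0_RIPK3 2. At J7, MLKL was higher than RIPK3 in Junb (1.65 ± 0.15), Ier3 (0.97 ± 0.21), Zfp36 (0.91 ± 0.09), Egr1 (0.89 ± 0.15) and Ier2 (0.78 ± 0.30) and lower in Dusp1 (-0.78 ± 0.15) and Jun (-0.62 ± 0.09). These 7 of 8 stand beside 86.8% of 6591 genes called, 44.8% higher and 42.0% lower. Ier2 was 0.33 without J7_MLKL 3, and its call was lost without J7_RIPK3 1, 2 or 3 (edgeR adjusted p = 0.0936, 0.0999 and 0.107). With library totals in place of TMM factors the median of all genes in this comparison moved by -0.17 and Ier2 was no longer called (0.60, edgeR adjusted p = 0.0802), and in J7_MLKL against J7_CTL the same scaling moved the median by -0.10. Relative to the median of all genes tested, Junb in J7_MLKL against J7_CTL was 1.51 and Jun -0.72.

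**Figure D4:**
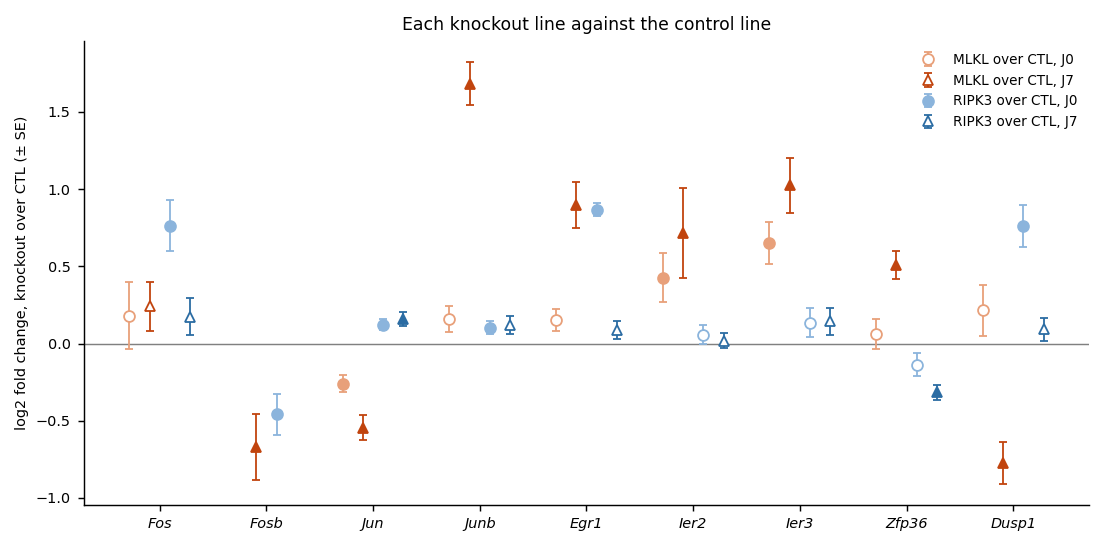
Log2 fold change of each knockout line over CTL (y axis) for each gene (x axis), with bars of ± 1 SE. Circles are J0 and triangles J7, orange MLKL and blue RIPK3, filled marks were called and open marks were not. Junb at J7 in MLKL stands highest, at 1.68, and the RIPK3 values at J7 lie between -0.32 and 0.17.

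Whether the change from J0 to J7 differed between a knockout line and CTL was tested with an interaction term. For RIPK3, 3 of 8 genes were called, all lower, beside 39.0% of 11027 genes, 18.4% higher and 20.6% lower. The RIPK3 change minus the CTL change was -0.78 ± 0.07 in Egr1 (edgeR adjusted p = 1.71e-09), which moved in opposite directions in the 2 lines, -0.66 ± 0.15 in Dusp1 (edgeR adjusted p = 0.000814) and -0.59 ± 0.21 in Fos (edgeR adjusted p = 0.0241), which rose in both. These 3 genes already stood higher in RIPK3 at J0, and their J7 levels overlapped those of CTL. The call of Fos was lost without any of J0_CTL 1 or 2, J0_RIPK3 1 or 3 or J7_CTL 2, where it was -0.48 (edgeR adjusted p = 0.0831).

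For MLKL, 5 of 8 genes were called, 3 higher and 2 lower, beside 65.3% of 3033 genes, 39.0% higher and 26.3% lower. The values were 1.42 ± 0.17 for Junb (edgeR adjusted p = 1.6e-05), -1.10 ± 0.21 for Dusp1 (edgeR adjusted p = 0.000666), 0.64 ± 0.17 for Egr1 (edgeR adjusted p = 0.00534), -0.39 ± 0.08 for Jun (edgeR adjusted p = 0.00149) and 0.34 ± 0.12 for Zfp36 (edgeR adjusted p = 0.0254). The median of all genes tested was 0.30 in this term, and DESeq2's size factors moved it by -0.33, to -0.02. Of all calls 59.8% were higher with TMM and 48.1% with DESeq2. Relative to that median, the TMM and DESeq2 values were 1.11 and 1.13 for Junb, -1.40 and -1.38 for Dusp1, -0.70 and -0.68 for Jun, 0.33 and 0.34 for Egr1 and 0.03 and 0.04 for Zfp36. With DESeq2 Junb, Jun and Dusp1 were called and Egr1 (0.32, adjusted p = 0.103) and Zfp36 (0.02, adjusted p = 0.893) were not, and Ier2 and Ier3 turned from 0.18 and 0.27 to -0.13 and -0.05. Without J7_MLKL 1 the values of Egr1 and Zfp36 were 0.42 (edgeR adjusted p = 0.045) and 0.15 (edgeR adjusted p = 0.292). The call of Zfp36 was also lost with a mean of at least 50 counts (0.19, edgeR adjusted p = 0.127) and without any of J0_CTL 1, J0_MLKL 1, J7_CTL 3 or J7_MLKL 2.

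The MLKL results were recomputed without J0_MLKL 2 and J7_MLKL 3, and the values named here were all called. From J0 to J7 the MLKL line then gave 1.66 for Fos, -0.44 for Jun, 1.10 for Junb, 1.01 for Egr1, 0.99 for Ier2, 1.21 for Ier3, 1.98 for Zfp36 and 1.18 for Dusp1. J7_MLKL against J7_CTL gave -0.68 for Fosb, -0.60 for Jun, 1.01 for Egr1, 0.54 for Zfp36 and -0.91 for Dusp1, and J0_MLKL against J0_CTL gave -0.28 for Jun. Directions were those seen with all libraries. J7_MLKL against J7_RIPK3 gave -0.67 for Jun, 1.47 for Junb, 1.01 for Egr1, 0.74 for Ier3, 0.94 for Zfp36 and -0.91 for Dusp1, and J0_MLKL against J0_RIPK3 -0.63 for Fos, -0.43 for Jun, -0.69 for Egr1, 0.35 for Ier3 and -0.58 for Dusp1. The interaction gave -0.39 for Jun, 1.36 for Junb, 0.74 for Egr1, 0.46 for Zfp36 and -1.18 for Dusp1.

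Levels of different genes were ordered per length, in FPKM. In J0_CTL Jun led at 28.9 ± 0.36 (SD, n = 3), before Junb at 19.9 ± 0.53, Ier2 at 16.7 ± 1.31, Ier3 at 8.57 ± 0.62 and Egr1 at 8.52 ± 0.21, and Fos (0.96 ± 0.17) and Fosb (0.88 ± 0.13) were lowest. Ier3 and Egr1 overlapped there, as did Fos and Fosb. In J7_CTL the order was Ier2 at 34.3 ± 1.06, Jun at 28.3 ± 0.97, Ier3 at 17.3 ± 0.46, Junb at 16.8 ± 0.64, Zfp36 at 14.5 ± 0.25, Egr1 at 10.5 ± 0.51, Dusp1 at 7.91 ± 0.33, Fos at 3.05 ± 0.48 and Fosb at 0.56 ± 0.12, with overlap only between Ier3 and Junb. J7_RIPK3 had the same order over its 8 genes, with overlap also between Zfp36 and Egr1. In J7_MLKL Ier2 (52.4 ± 23.3) and Junb (50.3 ± 8.46) overlapped at the top, and Jun (18.1 ± 0.52) overlapped Egr1 (18.1 ± 3.40) in the sixth place.

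Libraries of 1 group also differed among themselves in a shared way. J7_MLKL 3 stood above the mean of the other 2 libraries by 1.02 on the log2 scale in Ier2, 0.53 in Ier3, 0.40 in Junb and 0.29 in Dusp1, and below it in Egr1 (-0.49) and Zfp36 (-0.19). J0_MLKL 2 stood above its group by 0.57 in Ier2, 0.42 in Ier3 and 0.28 in Junb, with Egr1 at -0.13. Over the 18 libraries, deviations from the group means had a Pearson r of 0.92 between Junb and Ier2, 0.83 between Junb and Ier3, 0.80 between Ier2 and Ier3 and -0.83 between Egr1 and Ier2. Without those 2 libraries the 4 values were 0.81, 0.66, 0.60 and -0.62. Deviations of Jun and Junb had an r of 0.70, while their levels over the same libraries had an r of -0.82. Genes measured in the same library share its depth and scaling, so these correlations are a description, and what moved the libraries was not tested.

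Markers of cell state moved with the groups. The summed CPM of 10 adipocyte markers was 291 to 507 in the J0 libraries, 22110 to 23223 in J7_CTL, 24482 to 26463 in J7_RIPK3 and 3637 to 5219 in J7_MLKL, so J7_MLKL lay far below the other J7 groups. Within J7_MLKL the third library, which stood apart in the early genes, had the highest adipocyte sum (5219, beside 3637 and 4044). Of 9 fibroblast and preadipocyte markers, 6 had counts in all libraries and summed to 9743 to 14084 CPM at J0, 2877 to 2942 in J7_CTL, 1875 to 2040 in J7_RIPK3 and 8360 to 9645 in J7_MLKL. Adipoq was at 0 in J0_CTL, Cd36, Retn and Adipoq in J0_MLKL, Retn in J0_RIPK3, and Dlk1, a preadipocyte marker, in J7_CTL and J7_RIPK3. Of 6 macrophage markers 3 had counts in CTL, Csf1r, Cd68 and Lyz2, with a sum of 73.4 to 78.4 CPM in J0_CTL and 11.9 to 13.3 in J7_CTL, and they summed to 36.4 to 41.2 CPM in J0_RIPK3 and 11 to 13.0 in J7_RIPK3. The MLKL groups had counts for 1 macrophage marker each. The part of these markers in the differences of Junb, Dusp1 and the other early genes was not tested, and in these bulk libraries fewer cells of a type and less RNA per cell cannot be told apart.

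Heat shock genes, which cell handling can induce as it does early genes, were read beside them. From J0_CTL to J7_CTL 8 of the 9 tested rose and 1 fell, where 95.9% of all genes were called, 48.2% higher. The rise was led by the mitochondrial chaperone genes Hspd1 (2.65 ± 0.03, 287 to 1857 CPM) and Hspe1 (1.89 ± 0.04, 126 to 482 CPM). In J7_MLKL against J7_CTL all 6 tested were lower, Hspd1 by the most (-2.15 ± 0.13), beside 94.9% of all genes called and 46.4% lower. Only 6 of the 10 heat shock genes had counts in J7_MLKL, since counts there required a call by the authors. The others could not be tested, so the list as a whole was not seen. In J0_RIPK3 against J0_CTL 6 of 8 were higher and none was lower, with a median of 0.18, where 55.8% of all genes were called, 28.3% higher and 27.4% lower. This stands beside the higher Fos, Egr1 and Dusp1 of that group. Its part in those levels was not tested.

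Among the genes whose proteins pair with Fos and Jun, Atf3 and Fosl1 showed the largest changes. Of 8 AP-1 and bZIP genes tested in J7_CTL against J0_CTL 6 rose and 1 fell, and the share called is near the 95.9% of all genes. Atf3, a stress-induced repressor of the ATF family, rose by 4.91 ± 0.13 (0.75 to 23.9 CPM), Fosl1, which encodes the Fos-family protein Fra-1, by 3.13 ± 0.08 (11.3 to 104 CPM), and Maff by 2.18 ± 0.13, while Jdp2, a repressor of AP-1, fell by 1.45 ± 0.04. RIPK3 gave the same counts, beside 97.8% of all genes called, with Atf3 at 5.55 ± 0.13. In J7_MLKL against J7_CTL 3 of 6 were lower and 3 higher, beside 94.9% of all genes called, 48.5% higher and 46.4% lower. The lower ones were Fosl1 (-3.53 ± 0.13, 104 against 8.38 CPM), Atf3 (-3.10 ± 0.18, 23.9 against 2.58 CPM) and Maff (-1.38 ± 0.20). Mafk (1.03 ± 0.10) was among the higher ones. In the MLKL cells Fosl1 and Atf3 at J7 were thus lower than in CTL, while Junb was higher and Fos was not called.

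Among other early response transcription factors, 4 rose and 6 fell of 10 in J7_CTL against J0_CTL (95.9% of all genes called). Myc (2.02 ± 0.05) and Nfil3 (1.80 ± 0.06) rose, and Klf4 (-1.92 ± 0.04) and Nr4a2 (-1.58 ± 0.11) were lower. In J7_MLKL against J7_CTL 4 of 9 were higher and 4 lower (94.9% of all genes called). Klf2 (2.28 ± 0.28), the shear-responsive Krüppel-like factor, Egr3 (2.18 ± 0.30), a relative of Egr1, and Nr4a2 (1.38 ± 0.22) were higher, and Nfil3 (-1.32 ± 0.14) was lower. Of early response effectors 8 were higher and 5 lower of 15 in that comparison. Those highest were Ctgf (4.22 ± 0.33, 3.05 against 0.17 CPM) and Cyr61 (4.02 ± 0.10, 224 against 14.8 CPM), matricellular proteins and targets of serum response factor and YAP, with Gadd45b (3.01 ± 0.23) and Plk2 (2.06 ± 0.09).

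Genes of feedback inhibitors of growth-factor and ERK signalling, the class of Dusp1, included leading members that, like Dusp1, rose to J7 in CTL and were lower in J7_MLKL than in J7_CTL. In J7_CTL against J0_CTL 7 of 11 rose and 3 fell, beside 95.9% of all genes called, 48.2% higher and 47.6% lower. Those that rose were led by the ERK phosphatase gene Dusp4 (4.19 ± 0.07, 3.76 to 70.3 CPM), the Sprouty gene Spry4 (3.302 ± 0.07, 5.94 to 60.8 CPM) and the EGF receptor inhibitor gene Errfi1 (2.70 ± 0.04, 24.7 to 167 CPM). In J7_MLKL against J7_CTL 6 of 10 were lower and 4 higher, beside 94.9% of all genes called and 46.4% lower, with Spry4 at -3.86 ± 0.12, Dusp4 at -3.15 ± 0.27, Errfi1 at -2.04 ± 0.13 and Dusp10 at -1.73 ± 0.16. In the interaction term 7 of 11 feedback genes were lower and 0 higher for RIPK3, at a list median of -0.36 beside 0.01 over all genes, of which 39.0% were called, 18.4% higher and 20.6% lower, with Dusp4 at -0.71 ± 0.12 and Errfi1 at -0.54 ± 0.06. For MLKL 5 of 7 were lower and 2 higher, beside 65.3% of all genes called and 26.3% lower. Dusp4 stood there at -2.72 ± 0.40 and Spry4 at -2.41 ± 0.29. In J0_RIPK3 against J0_CTL 9 of 12 feedback genes were higher and 1 lower (median 0.29), beside 28.3% of all genes higher and 27.4% lower. In J7_RIPK3 against J7_CTL 4 of 12 were higher and 5 lower (median -0.04), beside 29.6% of all genes higher and 29.5% lower. The lower RIPK3 interaction values thus went with higher levels at J0. Upstream of the early genes, 23 kinases, receptors and factors split evenly, with 11 higher and 12 lower in J7_CTL against J0_CTL (95.9% of all genes called), where the PDGF receptor genes Pdgfra (-2.33 ± 0.03) and Pdgfrb (-2.59 ± 0.04) and the ternary complex factor gene Elk3 (-2.43 ± 0.06) changed most. Both receptor genes were higher in J7_MLKL than in J7_CTL, Pdgfra by 3.27 ± 0.34 and Pdgfrb by 2.88 ± 0.13.

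Transcripts with AU-rich elements, the class of RNA that Zfp36 binds, did not share 1 direction. In J7_CTL against J0_CTL Vegfa rose by 1.70 ± 0.04 and the chemokine genes Ccl2 (-4.33 ± 0.16, 15.2 to 0.78 CPM) and Cxcl1 (-3.60 ± 0.15, 13.2 to 1.12 CPM) were lower. In J7_MLKL, where Zfp36 was higher than in CTL, Ccl2 (5.25 ± 0.30, 27.7 against 0.78 CPM) and Cxcl1 (3.66 ± 0.21, 13.2 against 1.12 CPM) were higher and Vegfa lower (-1.49 ± 0.22). The list tested there held ZFP36 family genes beside such transcripts. Of its 7 genes tested, 4 were higher and 3 lower, beside 94.9% of all genes called.

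The genes outside the set whose mean log2 CPM over the 6 groups was most like the mean standardised profile of the 8 fully counted early genes were sought among 2186 genes. They were Nr1d2 (Pearson r = 0.98 over 6 groups), which encodes the clock repressor REV-ERB beta, Gadd45a (0.96), a growth arrest gene, Fmo1 (0.96), Hist1h4h (0.95) and Ly6h (0.95). Nr1d2 had mean levels of 29.0, 36.9 and 37.4 CPM in J0_CTL, J0_MLKL and J0_RIPK3 and of 56.5, 78.3 and 64.5 CPM in J7_CTL, J7_MLKL and J7_RIPK3. All 5 had a higher mean in each J7 group than in any J0 group, and the values are a ranking over 6 points and no more.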

How the data were processed

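RNA-seq of 18 libraries was analysed, 3 for each of 6 groups. The deposited comparison tables (7 were used, 14 other deposited tables were not) hold, per the file headers, raw read counts, FPKM, gene length in bases, log2 fold changes and p-values with their adjusted form for genes the authors called. They also hold, per the file headers, normalised counts (a signal equal to the count divided by a size factor). The submitters' processing notes name, in no stated order, HISAT2, featureCounts 1.5.0-p3, FastQC 0.11.9, build mm10 and DESeq2. A gene called in no comparison with a group has no counts there, so the tables are preselected and p-values over them are adjusted within a selected set.

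Counts were joined by gene identifier over the 7 tables (88950 repeated counts, 0 differing), and library totals were recovered from count, FPKM and gene length, with genes of at least 100 reads. CPM values are counts over those totals. The test was edgeR 4.0.16 (R 4.3.3), quasi-likelihood, on the libraries of the groups compared, with filterByExpr, TMM factors and Benjamini-Hochberg adjustment over all genes tested, called at 0.05. It was tested on simulated data modelled on CTL and RIPK3 libraries, with few genes changed. Those data do not cover the preselected MLKL groups or comparisons in which most genes were called. Alternatives were library totals, the authors' size factors, DESeq2 1.42.0, no filter on low counts, a mean of at least 50 counts, a replicate block, each library left out, the 2 MLKL libraries that stand apart left out, and J7 knockout groups by the genotype label. The authors' own log2 fold changes and p-values, deposited in the tables, were used only for checks. The early genes and the related gene lists were chosen with earlier results of these data known. Named were all early genes, up to 4 called genes of each list with the largest changes in a comparison, and the 5 genes most like the early genes over the groups (log2 CPM with a pseudocount of 0.01, at least 10 CPM in some group). Same-numbered libraries deviated together in 2 of 27 pairs (r over 0.1), so the replicate numbers were not taken as pairs.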

Additional observations from a re-analysis of the deposited data

Results flagged for a closer look

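The change from J0 to J7 differed between the RIPK3 line and CTL in 3 early genes by a test of the difference itself (edgeR interaction term). The differences were -0.59 in Fos (adjusted p = 0.0241), -0.78 in Egr1 (adjusted p = 1.71e-09) and -0.66 in Dusp1 (adjusted p = 0.000814). It differed between the MLKL line and CTL in 5 genes by the same test. The differences were -0.39 in Jun (adjusted p = 0.00149), 1.42 in Junb (adjusted p = 1.6e-05), 0.64 in Egr1 (adjusted p = 0.00534), 0.34 in Zfp36 (adjusted p = 0.0254) and -1.10 in Dusp1 (adjusted p = 0.000666). With DESeq2 Egr1 (adjusted p = 0.103) and Zfp36 (adjusted p = 0.893) did not pass in the MLKL term, and Zfp36 was 0.03 from the median of all genes tested, 0.30. Both terms share the CTL libraries and rest on the titles of the J7 knockout samples.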

How the results depend on the processing

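Of 91 tests of an early gene in a comparison 63 were called, and 43 of these were called in the same direction in every alternative run. No called value changed sign other than by taking the J7 knockout groups from the genotype label, which turned 8 called values. By that label Junb (1.23) and Egr1 (0.21) turned in RIPK3 from J0 to J7, and Jun (0.55) and Junb (-0.11) in MLKL. In the interaction with RIPK3 Jun was then -0.70, Ier2 0.63 and Zfp36 0.61, and 6 genes were called, not 3. In that with MLKL Jun was 0.40, Junb -0.0523, Egr1 -0.0783, Ier2 -0.42, Ier3 -0.52 and Zfp36 -0.40, and 3 genes were called, not 5, as also with DESeq2 (3). Over all genes the label gave 2854 calls of 6442 tested, not 11533 of 11798, in RIPK3 from J0 to J7. In MLKL it gave 3081 of 3524, not 2051 of 3075. For the RIPK3 interaction it gave 5681 of 6650, not 4298 of 11027, and for that of MLKL 2076 of 3522, not 1981 of 3033. Counts by title and by label come from differently preselected genes, with 7868 listed in the libraries titled J7_MLKL and 13061 in those titled J7_RIPK3. They cannot be set against each other. What turned the signs of the early genes was not tested.

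Values that were not called also changed sign. With library totals Fos was -0.021 in J7_MLKL against J7_RIPK3, and in the RIPK3 interaction Junb was -0.0157 and Ier3 -0.0255. With DESeq2 Ier2 was 0.0027 in the RIPK3 interaction, and in the MLKL interaction Ier2 was -0.13 and Ier3 -0.0473. Without both J0_MLKL 2 and J7_MLKL 3, Junb was -0.0569 in J0_MLKL against J0_RIPK3, and in the MLKL interaction Fos was 0.0013 and Ier2 -0.0305. Leaving out 1 library at a time gave Junb from -0.0569 to 0.10 in J0_MLKL against J0_RIPK3. In the RIPK3 interaction it gave Junb from -0.0354 to 0.0792, Ier2 from -0.10 to 0.0163 and Ier3 from -0.13 to 0.10, and in the MLKL interaction Fos from -0.25 to 0.10 and Ier2 from -0.25 to 0.39. The number of early genes called ran from 2 to 4 in J7_RIPK3 against J7_CTL and from 3 to 6 in J0_MLKL against J0_RIPK3.

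With the replicate number as a block, which pairs libraries only by number, the calls of Junb in J0_RIPK3 against J0_CTL (0.10, edgeR adjusted p = 0.0548) and of Ier2 in J7_MLKL against J7_CTL (0.63, edgeR adjusted p = 0.0577) and J7_RIPK3 (0.69, edgeR adjusted p = 0.0564) were lost, and Ier3 turned to -0.0069 in the RIPK3 interaction. The block gave 9, 7 and 8 calls from J0 to J7 in CTL, RIPK3 and MLKL. Deviations of same-numbered libraries had r from -0.81 to 0.63, and in 8 of 27 pairs the same number gave the highest r. The authors' size factors could not be used for the direct comparisons of the knockout lines or the interactions, since no table holds those groups together. Counts of 41 to 3829 reads limit Fos and Fosb most.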
